A study of Mus musculus with 8 samples.

Results

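Animal cells balance iron uptake, storage and export largely through the translation and decay of a few mRNAs. When iron is scarce, the iron regulatory proteins IRP1 and IRP2 bind a short hairpin, the iron-responsive element (IRE). An IRE in the 5′ UTR then blocks translation of ferritin and ferroportin, while IREs in the 3′ UTR protect the mRNA of the transferrin receptor from decay. T cells need the transferrin receptor to grow once they are activated.

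The 8 genes described here were taken by symbol from a table of 23155 genes, and all 8 were found in it. They are the ferritin chains Fth1 and Ftl1, the transferrin receptor gene Tfrc, Aco1 (IRP1), Ireb2 (IRP2), the ferritin cargo receptor gene Ncoa4, the haem oxygenase gene Hmox1 and the iron exporter gene Slc40a1. Ribosome footprints, the mRNA stretches that ribosomes protect from nuclease, were sequenced from Mettl3 knockout (KO) and wild-type (WT) mice, with 2 libraries per genotype. Mettl3 encodes the enzyme that places the m6A mark on mRNA. Both genotypes were of the C57BL/6 strain, the cells were naive CD4+ T cells, and both were held in cycloheximide at 0.1 mg/ml for 1 min to stall ribosomes. The sources used here give neither the allele behind the knockout nor the age of the mice. The 4 input RNA libraries were not analysed here, so a footprint level is not divided into mRNA amount and ribosome density. Whether duplicates came from separate mice is not stated, so each p-value reflects only how far these libraries differed, possibly for technical reasons.

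Levels are in FPKM, fragments per kilobase of transcript relative to all reads of a library. Depth, estimated from the value of a single read in low genes, was 5850000 and 2930000 reads in the KO libraries and 5790000 and 3450000 reads in the WT libraries. Mettl3 itself stood at 2.44 and 3.32 FPKM in KO, against 24.5 and 21.1 FPKM in WT (log2 fold change -2.62, limma adjusted p = 0.00208). The summed FPKM of 7 CD4 T cell markers was 409 and 399 in KO and 478 and 530 in WT, and Cd4 alone had 82.0 and 101 FPKM in KO and 94.6 and 97.1 FPKM in WT. At 5 of these 7 markers, Cd3d, Cd3g, Lck, Cd28 and Cd5, both KO libraries lay below both WT libraries, beside 34.6% of all tested genes. The adjusted threshold was passed by 0 of 7 (limma, 4 of 7 at an unadjusted p under 0.05, beside 18.4% of all tested genes). The CD8 T cell markers Cd8a and Cd8b1 summed to 1.47 and 1.28 FPKM in KO and 1.13 and 2.41 FPKM in WT. The B cell marker Pax5, the NK cell marker Ncr1 and the red pulp macrophage regulator gene Spic were at 0 in all 4 libraries.

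The hairpins are shown first, since they tell which of the 8 genes hold the canonical element. Annotated transcripts (GENCODE M21, GRCm38) were searched on the sense strand for the canonical IRE. This is a bulged C, 5 bases, the loop CAGTGN with any base but G as N, and 5 bases that pair with the first 5, with G-T pairs allowed. The match was found in 4 of the 8 genes, so the set is broader than the mRNAs with an IRE. In the lines that follow, the bulged C and the loop are in capitals, with 6 flanking bases on either side, written 5′ to 3′ as DNA.
Fth1, 5′ UTR: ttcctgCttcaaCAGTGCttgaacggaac
Ftl1, 5′ UTR: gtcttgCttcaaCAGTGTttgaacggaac
Slc40a1, 5′ UTR: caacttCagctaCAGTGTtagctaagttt
Tfrc, 3′ UTR, hairpin 1: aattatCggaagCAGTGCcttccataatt
Tfrc, 3′ UTR, hairpin 2: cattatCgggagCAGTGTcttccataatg
Tfrc, 3′ UTR, hairpin 3: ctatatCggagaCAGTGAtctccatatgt
Tfrc, 3′ UTR, hairpin 4: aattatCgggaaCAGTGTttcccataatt

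The Fth1 hairpin is at chr19:9982732-9982760 on the plus strand, and its core ends 115 bases before the start codon. That of Ftl1 is at chr7:45459779-45459807 on the minus strand, 153 bases before the start codon, and the ferritin pair have the same stem and differ within the loop in its last base. The Slc40a1 hairpin is at chr1:45925465-45925493 on the minus strand, 207 bases before the start codon. The 4 Tfrc hairpins are on the plus strand of chromosome 16, at chr16:32631219-32631247, chr16:32631598-32631626, chr16:32631663-32631691 and chr16:32631710-32631738. Their cores begin 892 to 1383 bases after the last base of the codon before the stop codon. The Tfrc 3′ UTR is usually described as holding a further element, which this strict search did not match. No match was found in Aco1, Ireb2, Ncoa4 or Hmox1, whose products bind the element, take ferritin to the lysosome or break down haem. Among 20496 protein-coding genes searched, 0.0781% held the motif in a 5′ UTR and 0.405% in a 3′ UTR. A match is a description of sequence, and binding was not measured.

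The 8 genes spanned more than 2 orders of magnitude in footprint level, and their order was nearly the same in every library. Ftl1, which encodes the light chain that helps iron mineralise inside the ferritin shell, was the highest at 142 to 172 FPKM, and it stood above 97.6% of all tested genes in every library. Fth1, the heavy chain with ferroxidase activity, followed at 56.5 to 90.6 FPKM, and Ncoa4 at 28.9 to 34.5 FPKM. Tfrc lay at 6.06 to 8.98 FPKM, between the 49.3 and 59.1 percentiles of tested genes. None of these 4 ranges overlapped the next. Aco1 (3.85 to 4.46 FPKM) and Ireb2 (3.27 to 5.03 FPKM) overlapped each other, and so did Slc40a1 (0.0555 to 1.81 FPKM) and Hmox1 (0.462 to 0.930 FPKM).

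FPKM divides by the whole transcript, while footprints lie mainly on the coding part, so long UTRs lower it. Rescaled to the coding length of 1 RefSeq-linked transcript per gene, on the assumption that its full length was the authors' divisor, the means over the 4 libraries were 271 for Ftl1, 124 for Fth1, 68.5 for Ncoa4 and 15.9 for Tfrc, per coding kilobase. On this scale Ireb2 (mean 7.90, coding length 2889 of 5770 bases) stood above Aco1 (mean 5.92, coding length 2667 of 3832 bases) in each of the 4 libraries, which the overlapping FPKM ranges do not show. The means of Slc40a1 and Hmox1 were 1.74 and 1.22.

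**Figure D1:**
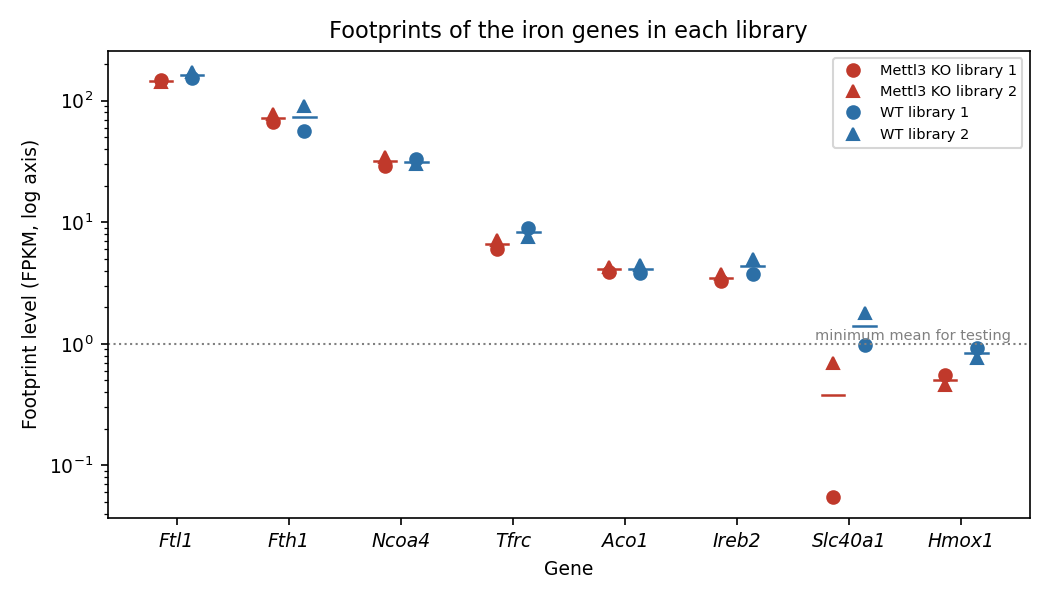
Footprint level (FPKM, log axis) of the 8 iron genes in each library, ordered by mean; red marks are Mettl3 KO, blue marks WT, circles library 1, triangles library 2, and short lines the genotype means. The genotypes stand close together at Ftl1, Fth1, Ncoa4 and Aco1, and the widest gap is at Slc40a1, where the lowest KO value was 0.0555 FPKM.

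None of the 6 members with a mean of at least 1 FPKM passed the test between genotypes (0 of 6, limma, Benjamini-Hochberg adjusted over all genes, and 0 of 6 at an unadjusted p under 0.05). Among the 9271 genes tested, 2.22% passed the adjusted threshold, 145 (1.56%) higher and 61 (0.658%) lower in KO, and 18.4% had an unadjusted p under 0.05. The median log2 fold change of the 6 was -0.09, beside -0.10 for all tested genes. Hmox1 and Slc40a1 were under the minimum and have values with no test. In 5 of the 8 genes both KO libraries lay below both WT libraries, and in 0 both lay above. Of the 6 tested, 3 lay below in this way, beside 34.6% of all tested genes. Once libraries were centred on their medians it was 2 of 6 (Tfrc and Ireb2), beside 24.2%, while at Aco1 both KO libraries then lay above both WT libraries. These gaps were narrow: the nearest centred KO and WT values, in log2, were 3.016 and 3.021 at Tfrc, 2.235 and 2.246 at Ireb2, and 2.391 and 2.369 at Aco1. The share of all FPKM that fell on small RNA genes was 55.7% and 49.4% in KO and 43.7% and 37.0% in WT, and CD4 T cell markers were also mostly lower in KO. The part of either in the lower KO values was not tested.

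The storage side was examined first. Fth1 had 66.4 and 78.1 FPKM in KO and 56.5 and 90.6 FPKM in WT. The KO values lay between the WT values, and the log2 fold change was 0.01 (SE 0.22, 95% interval -0.50 to 0.52, limma adjusted p = 0.987). Its direction turned without WT library 1 (-0.33) or without KO library 2 (-0.11), and in both genotypes library 2 was the higher. The same libraries were the higher ones for erythroid markers, whose summed FPKM was 10.0 and 45.2 in KO and 5.88 and 22.8 in WT, mostly from the globin gene Hba-a1, and the part of red cell RNA in the Fth1 values was not tested.

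Ftl1 had 148 and 142 FPKM in KO and 152 and 172 FPKM in WT. Both KO libraries were the lower, but by less than the spread allows to call. The log2 fold change was -0.16 (SE 0.12, 95% interval -0.43 to 0.12, limma adjusted p = 0.516), which on the scale of FPKM + 1 is a KO level between 0.742 and 1.08 times that of WT. This was the narrowest interval of the 6. After centring libraries on their medians the genotypes overlapped at Ftl1, and without WT library 2 the log2 fold change was -0.07, against -0.25 without WT library 1.

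Ferritin footprints carry a limit of assignment. Of the 28-base windows of the Ftl1 coding sequence, about the length of a footprint, 96.0% also occur in transcripts of another annotated gene, chiefly copies such as Ftl1-ps1, Gm15590 and Ftl2-ps. The share was 26.2% for Fth1, through Gm6977, Fth-ps3 and Fth-ps2, and 97.0% for Ncoa4, through the single gene Gm6768. It was 0 for Tfrc, Aco1, Ireb2, Hmox1 and Slc40a1. The sources used here do not say how reads that match several places were assigned, so the levels of Ftl1 and Ncoa4 in particular are uncertain. An annotated exon of Ftl1 also overlaps Gm10252 on the opposite strand and Gm22133.

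Ncoa4, which delivers ferritin to autophagosomes so that its iron can be released, had 28.9 and 34.5 FPKM in KO and 33.2 and 29.9 FPKM in WT. The genotypes overlapped, with means of 31.7 ± 3.97 FPKM in KO and 31.5 ± 2.33 FPKM in WT (SD, n = 2 each). The log2 fold change was 0.0028 (SE 0.15, 95% interval -0.34 to 0.35, limma adjusted p = 0.994), the smallest in size of the 6. It turned to -0.07 without WT library 2 and to -0.12 without KO library 2.

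On the uptake side, Tfrc had 6.06 and 7.15 FPKM in KO and 8.98 and 7.59 FPKM in WT. Both KO libraries lay below both WT libraries, with means of 6.60 ± 0.766 FPKM in KO and 8.28 ± 0.987 FPKM in WT (SD, n = 2 each). The log2 fold change of -0.29 (SE 0.17, 95% interval -0.70 to 0.12) was the most negative of the 6 and was not past the threshold (limma adjusted p = 0.419, 0.376 to 0.733 over its alternatives). Leaving out single libraries gave -0.40 to -0.18, the lower values without WT library 2 or KO library 2 and the higher without WT library 1 or KO library 1. An estimated 173 and 102 reads lay behind these values in KO and 254 and 128 reads in WT, so the deeper library had the higher count in each genotype. Proliferation markers, which often rise with Tfrc in activated T cells, had the opposite order. The summed FPKM of 6 of them was 18.6 and 22.3 in KO and 10.7 and 11.9 in WT. Both KO libraries lay above both WT libraries at 5 of the 6, beside 16.3% of all tested genes. The genotypes overlapped at Ccnb1, with 0.506 and 0.601 FPKM in KO and 0.453 and 0.617 FPKM in WT. Mki67, named after its values were seen, had 2.27 and 3.64 FPKM in KO and 0.599 and 0.925 FPKM in WT. The adjusted threshold was passed by 0 of the 4 tested (limma, 3 of 4 at an unadjusted p under 0.05, beside 18.4% of all tested genes). Activation markers summed to 208 and 216 FPKM in KO and 198 and 207 FPKM in WT, mostly from Cd69. Of the 6 tested, 0 passed the adjusted threshold (limma), and 1 had an unadjusted p under 0.05, beside 18.4% of all tested genes. This was Tnfrsf4, named after its values were seen. It had 8.33 and 7.33 FPKM in KO and 3.35 and 4.10 FPKM in WT (log2 fold change 0.90, limma adjusted p = 0.0575). Both KO libraries lay above both WT libraries at 2 of the 7 listed, beside 16.3% of all tested genes. They lay below at 1, Egr1, beside 34.6%, and the genotypes overlapped at 4.

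**Figure D2:**
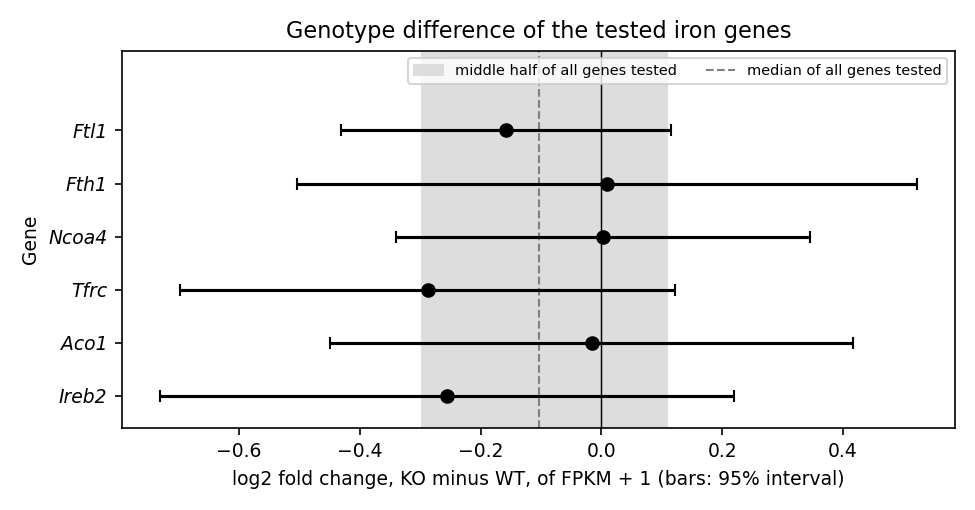
Log2 fold change, KO minus WT, of FPKM + 1 for the 6 tested iron genes, ordered by level; points are estimates and bars 95% intervals from limma, the grey band holds the values from the lower to the upper quartile of all tested genes (-0.30 to 0.11) and the dashed line their median (-0.10). Every interval includes 0 and every point lies within the grey band.

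The IRPs themselves were low and close to each other. Aco1, whose product is the cytosolic aconitase when it carries an iron-sulphur cluster and IRP1 when it does not, had 3.88 and 4.30 FPKM in KO and 3.85 and 4.46 FPKM in WT. The KO values lay between the WT values (log2 fold change -0.02, SE 0.18, 95% interval -0.45 to 0.42, limma adjusted p = 0.975), and the sign was positive, at 0.078 and 0.048, once libraries were centred on their medians or rescaled to the same sum. Ireb2, whose protein is degraded in iron-replete cells, had 3.27 and 3.74 FPKM in KO and 3.79 and 5.03 FPKM in WT. The KO libraries were the lower at Ireb2, but KO library 2 and WT library 1 were near each other, and the log2 fold change was -0.26 (SE 0.20, 95% interval -0.73 to 0.22, limma adjusted p = 0.547). It was -0.09 without WT library 2 and -0.42 without WT library 1.

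Ratios within a library do not depend on how libraries were scaled. Low iron acts on the IRPs to raise Tfrc against ferritin, so the ratio of Tfrc to the ferritin sum was taken. It was 0.0283 and 0.0325 in KO and 0.0430 and 0.0289 in WT. The genotypes overlapped, with a log2 difference of -0.22 (exact permutation p = 0.667, two-sided, where the smallest p that 2 libraries against 2 allow is 0.333), and leaving out WT library 1 turned it to 0.07. The Fth1 to Ftl1 ratio of footprints was 0.448 and 0.550 in KO and 0.371 and 0.526 in WT, and the genotypes again overlapped (exact permutation p = 0.667, two-sided). The chains in the ferritin shell were not measured. Both ratios that include Ftl1 also carry the limit of assignment given above. The Ireb2 to Aco1 ratio, chosen after its values were seen, was 0.843 and 0.869 in KO and 0.985 and 1.13 in WT. It did not overlap between genotypes, and its exact permutation p was the smallest the design allows, 0.333.

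**Figure D3:**
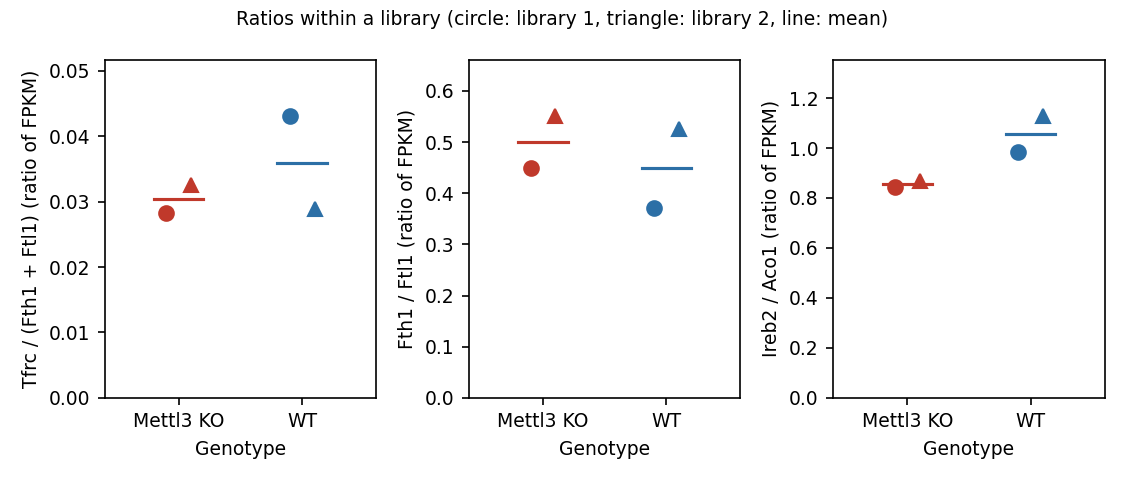
Ratios of FPKM within each library, from left to right Tfrc to the sum of Fth1 and Ftl1, Fth1 to Ftl1, and Ireb2 to Aco1, for Mettl3 KO (red) and WT (blue); circles are library 1, triangles library 2, lines the means, and each axis starts at 0. The genotypes overlap in the left and middle panels and are apart in the last, at 0.843 and 0.869 in KO against 0.985 and 1.13 in WT.

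The export and haem genes were at the edge of detection. Slc40a1, which encodes ferroportin, the iron exporter of the cell membrane, had 0.0555 and 0.700 FPKM in KO and 0.974 and 1.81 FPKM in WT. These correspond to an estimated 1.09 and 6.91 reads in KO and 19.0 and 21 reads in WT. Both KO libraries were the lower, the ratio of mean FPKM was 0.272, and KO library 1 alone stood at the level of about 1 read. Without the minimum on FPKM the log2 fold change was -0.81 (limma adjusted p = 0.427, unadjusted p = 0.0780), and without KO library 1 the log2 difference was -0.47. Among genes with a mean between 0.5 and 1 FPKM, both KO libraries lay below both WT libraries at 26.6%.

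Ferroportin is abundant in macrophages that recycle iron. Of 13 markers of macrophages and myeloid cells, 12 were above 0 in at least 1 library, and their summed FPKM was 17.03 and 23.1 in KO and 27.5 and 24.9 in WT. Most of the sum was Lyz2, at which the genotypes overlapped. At 4 of the 13 (C1qa, Vcam1, Cd163 and Mrc1) both KO libraries lay below both WT libraries. The share was 34.6% over all tested genes and 26.6% over genes with a mean between 0.5 and 1 FPKM. At 0 of the 13 both KO libraries lay above, and another 4 (Cd68, Itgam, Cd14 and C1qc) had the higher mean in KO. Vcam1, also made by splenic macrophages, had 0.335 and 0.596 FPKM in KO and 1.149 and 1.55 FPKM in WT. The complement gene C1qa had 0.173 and 0.361 FPKM in KO and 0.726 and 1.19 FPKM in WT. Both genes were under the minimum for testing and were chosen after their values were seen. KO library 1 also had the lowest sum of 5 B cell markers, at 4.27 FPKM, beside 15.2 FPKM in the other KO library and sums of 22.3 and 15.2 FPKM in WT. The part of other cell types in the Slc40a1 values was not tested, and in bulk samples fewer cells of a type and less RNA per cell cannot be told apart.

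Hmox1, the inducible enzyme that frees iron from haem, had 0.556 and 0.462 FPKM in KO and 0.930 and 0.759 FPKM in WT. The KO libraries were the lower, at an estimated 5.10 and 2.12 reads, against 8.45 and 4.11 reads in WT. Without the minimum on FPKM its log2 fold change was -0.29 (limma adjusted p = 0.418, unadjusted p = 0.0725). That fit called 0 of its 15456 genes.

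Genes whose levels ran most like those of 2 members over the 4 libraries were found by the distance between log2(FPKM + 1) profiles, each centred on its mean, among 1826 genes of at least 20 FPKM. Closest to Fth1 were Grb2 (distance 0.080), Cdkn2d (0.085) and Hist2h4 (0.107), all highest in WT library 2 and lowest in WT library 1. Closest to Tfrc were Anapc16 (0.047), Morc3 (0.059) and Eif4g2 (0.066), all lowest in KO library 1. With 4 libraries such likeness is a description.

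Iron pathways around the 8 genes were then read from the same fit, through 7 lists of 95 genes, of which 72 were tested. None of the 72 passed the adjusted threshold (limma), beside the 2.22% of all tested genes. At an unadjusted p under 0.05 there were 3 higher and 5 lower genes, 8 of 72 in all beside 18.4% of all tested genes. The median log2 fold change over the 72 was -0.14, and over the single lists it ran from -0.18 to 0.05, beside -0.10 for all tested genes.

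In the list of other mRNAs in which an IRE has been described, 5 genes were tested. Slc11a2, which encodes the iron importer DMT1, averaged 4.48 FPKM in KO and 4.53 FPKM in WT, and the phosphatase gene Cdc14a 2.50 FPKM in KO and 2.80 FPKM in WT. The log2 fold changes of the 5 ran from -0.24 to -0.01. The strict search found no match in a UTR of Slc11a2, Cdc14a, Epas1 or Pfn2, all tested genes of this list. Alas2, the first enzyme of haem synthesis in red cells and an IRE mRNA, was under the minimum at 0.688 and 0.715 FPKM in KO and 0.809 and 0.151 FPKM in WT.

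Among 9 tested genes of iron uptake, transport and chaperones (median 0.05), the iron chaperone gene Pcbp2 averaged 18.1 FPKM in KO and 22.2 FPKM in WT, and its relative Pcbp1 13.3 FPKM in KO and 14.7 FPKM in WT. Slc25a28, a mitochondrial iron carrier gene, averaged 12.3 FPKM in KO and 10.8 FPKM in WT. The genotypes overlapped at all 3. Transferrin itself (Trf), chosen after its values were seen, was under the minimum, at 0.143 and 0 FPKM in KO and 0.600 and 1.84 FPKM in WT.

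The list of IRP2 turnover and ferritin degradation had the KO libraries below the WT libraries at 5 of 7 tested genes, beside 34.6% of all tested genes, with 0 past the threshold and a median of -0.18. Skp1a and Rbx1, subunits of the ubiquitin ligase that holds FBXL5 and acts on IRP2, led it. Skp1a had 93.8 and 103 FPKM in KO and 131 and 137 FPKM in WT (log2 fold change -0.45, SE 0.11, limma adjusted p = 0.105). Rbx1 had 17.1 and 21.1 FPKM in KO and 26.0 and 26.0 FPKM in WT (log2 fold change -0.43, limma adjusted p = 0.193). The autophagy adaptor gene Tax1bp1 averaged 35.0 FPKM in KO and 36.4 FPKM in WT. Both ligase subunits serve many other substrates.

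Iron-sulphur cluster assembly, which consumes much of a cell's iron and decides whether Aco1 acts as IRP1, had 27 tested genes, a median of -0.16 and 0 calls. Fam96a, which acts in cytosolic cluster delivery, averaged 29.4 FPKM in KO and 33.4 FPKM in WT, as its relative Fam96b averaged 28.7 FPKM in KO and 33.4 FPKM in WT. The mitochondrial chaperone gene Hspa9 averaged 23.9 FPKM in KO and 28.4 FPKM in WT. Nfu1, a late-acting cluster carrier gene named after its values were seen, had 9.36 and 10.6 FPKM in KO and 15.3 and 18.4 FPKM in WT (log2 fold change -0.70, SE 0.16, limma adjusted p = 0.0881). It was the 1 gene of the 7 lists to pass in any alternative fit, at an adjusted p of 0.0485 among genes of at least 5 FPKM.

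Of 8 tested genes of haem synthesis and breakdown (median -0.07, 0 calls), Hmox2, the constitutive haem oxygenase gene, had 25.5 and 27.6 FPKM in KO and 16.5 and 23.1 FPKM in WT. Its KO libraries were the higher (log2 fold change 0.42, limma), the opposite order to the few reads of Hmox1. The biliverdin reductase gene Blvra averaged 11.1 FPKM in KO and 11.8 FPKM in WT, and Urod, a haem synthesis enzyme gene, 8.72 FPKM in KO and 9.56 FPKM in WT. Blvrb, a further biliverdin reductase gene chosen after its values were seen, had 5.53 and 7.20 FPKM in KO and 10.8 and 11.0 FPKM in WT (limma adjusted p = 0.103).

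Hmox1 is repressed by BACH1 and induced by NRF2, both of which pair with small MAF proteins. Nfe2l2, which encodes NRF2, had 9.99 and 11.9 FPKM in KO and 13.3 and 13.8 FPKM in WT, and its target Gclc averaged 15.2 FPKM in KO and 17.4 FPKM in WT. Mafk had 17.7 and 18.5 FPKM in KO and 14.4 and 12.8 FPKM in WT (log2 fold change 0.39, limma adjusted p = 0.217). The list of 10 tested genes had a median of -0.14 and 0 calls.

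Among 6 regulators of Tfrc mRNA and of T cell growth (median -0.14, 0 calls), Zc3h12a, which encodes the nuclease Regnase-1 that cleaves Tfrc mRNA, had 11.3 and 10.9 FPKM in KO and 12.2 and 14.7 FPKM in WT. Hif1a, a hypoxia factor that can induce Tfrc, had 22.8 and 27.98 FPKM in KO and 17.6 and 19.4 FPKM in WT (log2 fold change 0.43, limma adjusted p = 0.200). Myc averaged 8.16 FPKM in KO and 9.00 FPKM in WT.

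**Figure D4:**
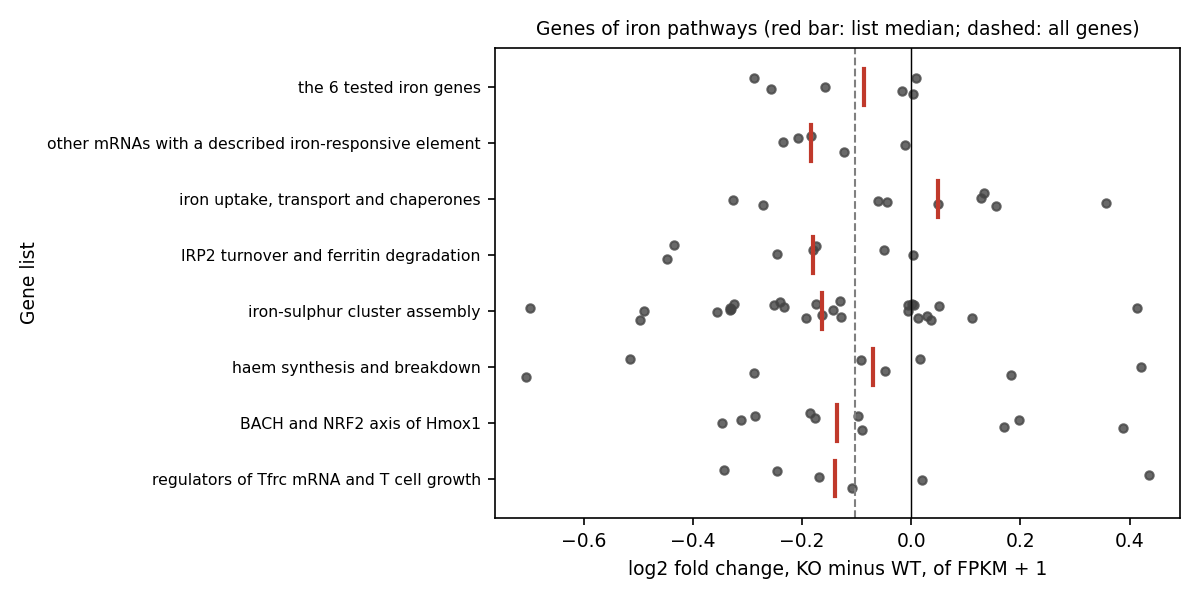
Log2 fold change, KO minus WT, of FPKM + 1 for each tested gene of the 6 iron genes and of the 7 pathway lists; each point is a gene (vertical scatter has no meaning), red bars are list medians and the dashed line is the median of all tested genes (-0.10). The points lie between -0.71 and 0.43, and none passed the adjusted threshold.

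The motif search also gave a set chosen by sequence alone. Of the 99 genes with the motif in a UTR, 61 were tested, with a median log2 fold change of -0.15 and 1 call, beside the 2.22% of all tested genes. Both KO libraries lay below both WT libraries at 26 of the 61 and above at 7, beside 34.6% and 16.3% of all tested genes. The 1 call was Serpina3g, a serine protease inhibitor gene with the motif in its 5′ UTR, named after its values were seen, which averaged 7.07 FPKM in KO and 1.10 FPKM in WT (log2 fold change 1.97, limma adjusted p = 0.0177). Of 11 tested genes with the motif in the 5′ UTR, where an IRP would block translation, 10 were not called, Fth1 and Ftl1 among them. At an unadjusted p under 0.05 (limma), 1 of the 11 was higher and 2 were lower, beside 18.4% of all tested genes. Of 50 tested genes with the motif in the 3′ UTR, Tfrc among them, 0 were called by limma (6 at an unadjusted p under 0.05, beside the same 18.4%). A chance match of these letters is not set apart from a hairpin that IRPs bind.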

How the data were processed

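Footprints of 2 Mettl3 KO and 2 WT libraries were read from a table in which the authors deposited FPKM per gene, 1 column a library, per the file headers. TopHat, Cuffdiff and the build mm10 (GRCm38) are named, per the submitters' processing notes; the sources used here do not give versions, annotation, strand use, the treatment of reads matching several genes or any scaling. Libraries were amplified for 9 PCR cycles, per the labels' protocols, without mention of molecular identifiers, so read numbers cover counting error only.

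A header-like row (1, all 0) and 1216 small RNA genes (recognised by symbol) were dropped, and the 9271 genes averaging 1 FPKM or more were tested on log2(FPKM + 1) with limma 3.58.1 in R 4.3.3 (trend, two-sided, 2 residual and 5.20 prior degrees of freedom), Benjamini-Hochberg adjusted, threshold 0.05. Fold changes on this scale understate low genes. Single values were compared by exact permutation. The fit was tested on simulated data. Depth came from the commonest FPKM times length among 4049 genes with 1 annotated transcript; reads per gene are estimates from it. Hairpins and shared 28-base windows were found in GENCODE M21 transcripts with Python 3.11.15. The 8 genes, the pathway lists and the marker lists were chosen with earlier results of these data known. Named genes were the 8, Mettl3, up to 4 called and the 3 most abundant tested genes of each list, and the 3 nearest profiles to Fth1 and Tfrc; 1 gene the rule names is not reported here. Alternatives changed pseudocount, filter, scaling, small RNA genes, trend, block and each library.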

Additional observations from a re-analysis of the deposited data

How the results depend on the processing

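With every alternative tried, 0 members passed the threshold. The count over all genes, 206, was 0 with no filter (2061 of 15456 genes had an unadjusted p under 0.05), 83 with small RNA genes kept, 68 without a variance trend, and between 1 and 57 when a library was left out, in fits where the lone library of a genotype is assumed to vary like the other pair. Of the pathway genes 1, Nfu1, passed among genes of at least 5 FPKM. The sign of Aco1 turned when libraries were centred (0.078) or rescaled (0.048), and without single libraries its log2 fold change ran from -0.10 to 0.070, that of Fth1 from -0.33 to 0.34 and that of Ncoa4 from -0.12 to 0.13; Ireb2 ran from -0.42 to -0.09, Ftl1 from -0.25 to -0.07 and Tfrc from -0.40 to -0.18, each keeping its sign. The cause was not tested. The log2 ratio of Tfrc to ferritin ran from -0.51 to 0.07 and that of Fth1 to Ftl1 from -0.08 to 0.42. Slc40a1, with so few reads, had log2 differences of -2.02 and -0.25 with pseudocounts of 0.1 and 5, and Hmox1 of -0.63 and -0.09. A filter of 5 FPKM gave no value for Aco1, Ireb2, Hmox1 and Slc40a1, and the variance trend and block do not bear on the last 2. With the replicate block 170 genes and 0 members were called; same-numbered libraries share only a number (correlation of their deviations across genes -0.093), and the block changed no call among the members.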
